A study of Mus musculus with 8 samples.

Results

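The genes described here are 10 components of NF-kB signaling that were listed by name, with earlier results of these data known, out of 55487 genes in the count table. They are the 5 NF-kB subunits (Nfkb1, Nfkb2, Rel, Rela, Relb), 3 genes of the IkB family (Nfkbia, Nfkbie, Nfkbiz) and 2 genes of ubiquitin feedback (Tnfaip3, Birc3). They were measured by RNA-seq in 8 tumors of the mouse line Lewis lung carcinoma (LLC), grown subcutaneously in untreated female C57BL/6J mice, bought at 6 to 8 weeks of age and acclimated before engraftment, and taken at day 12. In 4 tumors the injected cells were wild-type, and in 4 they were labelled Ago2 knock-out (ΔAgo2), which lack Argonaute 2, the small RNA-guided protein that silences matching transcripts. The knock-out cells came from lentiviral CRISPR, puromycin selection and single-cell cloning, so a difference between genotypes cannot be told apart from a difference between a clone and its parent line. Each library came from a whole tumor, in which host cells kept their Ago2 gene, and fewer cells of a type cannot be told apart from less RNA per cell. The comparison asks whether the transcripts of the NF-kB machinery itself differed between wild-type and ΔAgo2 tumors.

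NF-kB is a family of transcription factors that bind DNA as dimers and switch on inflammatory and survival genes. In resting cells IkB proteins hold the dimers in the cytoplasm. In the canonical route, IkB kinase marks IkB for destruction and frees mainly Rela and Nfkb1 dimers, and in the non-canonical route the kinase encoded by Map3k14 drives processing of the Nfkb2 precursor, which then pairs with Relb. Many of these genes, among them Nfkb2, Relb, Nfkbia, Tnfaip3 and Birc3, are themselves known NF-kB targets, so their transcripts are often read as a sign of pathway activity.

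The target sequence of the factor, the kappa B consensus, was searched by name on both strands in the RefSeq promoter windows of GRCm38.p6, which run from 250 bases before to 50 bases after each start. Windows were given for 7 of the 10 genes, and 5 of these 7 held at least 1 match, as did 7 of their 10 windows. Of 32851 windows over all genes, 8.46% held a match. The stretches below show 1 match for each of the 5 genes and a further match at an alternative Nfkb2 start, because these are the letters through which NF-kB could act on its own genes. Each is 30 bases, read 5′ to 3′ along the gene, with the match in capitals.
Nfkbia, chr12:55492657-55492686, minus strand: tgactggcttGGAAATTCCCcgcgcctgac
Nfkb2, chr19:46304688-46304717, plus strand: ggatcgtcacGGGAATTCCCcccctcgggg
Nfkb2 alternative start, chr19:46305695-46305724, plus strand: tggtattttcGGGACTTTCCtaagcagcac
Rel, chr11:23771042-23771071, minus strand: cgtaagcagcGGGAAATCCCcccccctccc
Nfkbie, chr17:45555584-45555613, plus strand: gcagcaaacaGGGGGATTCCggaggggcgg
Tnfaip3, chr10:19015516-19015545, minus strand: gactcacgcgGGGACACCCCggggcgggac
The match began 29 bases before the start in Nfkbia, 39 and 225 bases before the respective starts in Nfkb2, 92 in Rel, 106 in Nfkbie and 125 in Tnfaip3. The Rela and Birc3 windows held no match in these letters. A match is a description of sequence, and no binding was measured in these tumors.

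The libraries held 7903288 to 268564145 counts, and the shallowest were wild-type tumors 4 and 2 (7903288 and 20683668 counts). A count of 0 allowed a level of up to 0.43 CPM in the shallowest library and 0.0105 CPM in the deepest, for counting error only. CPM here is the count as a share of the library total, scaled to 1e+06 and adjusted by TMM, a correction for differences in RNA makeup. Ago2 itself checks the labels, and it was not lower in the tumors labelled ΔAgo2. Its level was 153.7 ± 28.94 CPM in wild-type and 239.5 ± 99.17 CPM in ΔAgo2 tumors (SD, n = 4 each), with a log2 difference of 0.64 ± 0.31 (SE) that did not pass the threshold of 0.05 (edgeR quasi-likelihood test, Benjamini-Hochberg adjusted p = 0.205). Its RNA level thus does not separate the groups by label, and every direction below is between groups named by their labels. The study assessed Ago2 protein in the knock-out cells by Western blot, which is not analysed here, and a CRISPR edit need not lower the RNA.

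Levels of the labelled tissue and of other cell types were also set side by side. Of the lung and epithelial markers, Nkx2-1 and Sftpa1 had 0 counts in every library and Sftpc, Sftpb and Scgb1a1 were at or near 0, whereas Krt8 and Krt18, keratins of simple epithelia, were at 231.0 to 501.2 and 257.3 to 845.3 CPM. The summed level of 10 skeletal muscle markers was 264.6 to 3745 CPM in wild-type and 53.3 to 218.4 CPM in ΔAgo2 tumors, with a negative difference for 10 of 10, and the highest Acta1 level was in wild-type tumor 3. The 10 keratinocyte markers summed to 15.72 to 619.1 CPM against 526.3 to 1000 CPM, with a positive difference for 10 of 10. The 8 fibroblast markers summed to 4887 to 7214 CPM in wild-type and 2249 to 4644 CPM in ΔAgo2 tumors, with a negative difference for 5 of 8, and most of the sum was the collagen Col3a1 (means of 4759 and 2931 CPM). Sums overlapped between genotypes at 581.4 to 1035 against 525.5 to 996.7 CPM for 8 pan-leukocyte markers and 2064 to 2555 against 1775 to 3802 CPM for 10 macrophage and monocyte markers. Of the 8 pan-leukocyte markers, 3 had a positive and 5 a negative difference (median log2 difference -0.055). Among them, Ptprc was higher in every ΔAgo2 tumor (log2 difference 1.12 ± 0.33, adjusted p = 0.0785, edgeR), whereas Coro1a differed by -0.875 (adjusted p = 0.263, edgeR). The 6 NK cell markers summed to 5.59 to 13.51 CPM in wild-type and 13.85 to 22.98 CPM in ΔAgo2 tumors, with a positive difference for 5 of 6. None of these 6 passed the threshold, and in wild-type tumor 4 they rest on 1 to 22 counts each. Sums of the T cell, B cell, neutrophil, dendritic cell and endothelial markers overlapped between genotypes. The part of tissue makeup in the values below was not tested.

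None of the 10 NF-kB genes passed the threshold in the edgeR test over 16061 genes, of which 3.49% did so, 1.36% higher and 2.12% lower in ΔAgo2 tumors. At an unadjusted p under 0.05, 3 of the 10 differed (Nfkb2, Rel and Rela), beside 26.7% of all genes. Nfkb2 was the member with the largest difference and was lower in every ΔAgo2 tumor, and Rel, the least abundant member, was higher in every ΔAgo2 tumor. The other 8 overlapped between genotypes. Of all genes tested, 8.36% had no overlap and were lower in ΔAgo2 tumors, and 8.05% had no overlap and were higher. The median log2 difference (ΔAgo2 over wild-type) was -0.10 for the members and 0.04 for all genes tested.

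**Figure D1:**
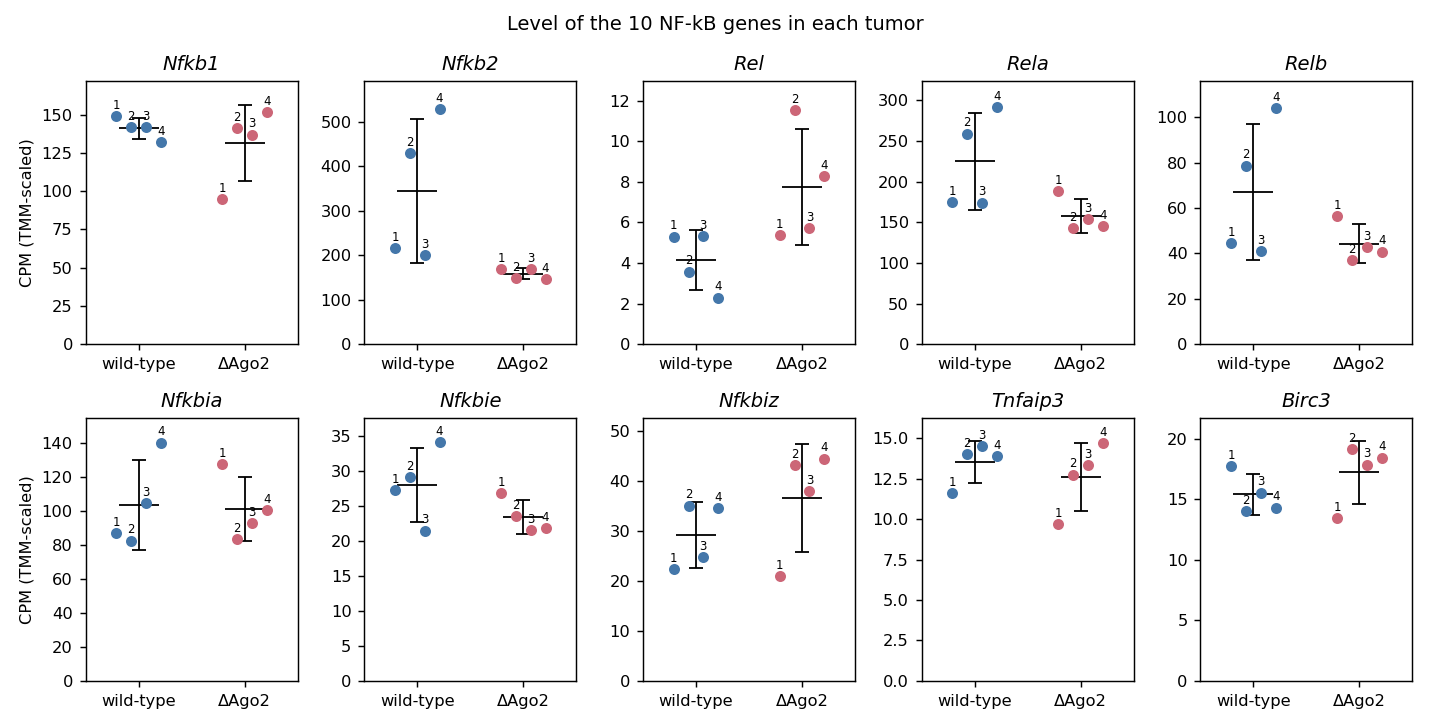
Level of each of the 10 genes in CPM (vertical axes, each starting at 0) in the wild-type and ΔAgo2 tumors, with tumor numbers beside the points and the mean ± SD in black (n = 4 each). The 4 wild-type points lie above the 4 ΔAgo2 points for Nfkb2 and below them for Rel, and wild-type tumors 2 and 4 carry the highest Nfkb2, Rela and Relb.

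Nfkb2, which encodes the precursor processed in the non-canonical route, was at 215.2, 429.9, 200.0 and 528.1 CPM in the 4 wild-type tumors, in the order of their numbers, and at 168.2, 147.6, 168.7 and 146.9 CPM in the 4 ΔAgo2 tumors. All wild-type values lay above all ΔAgo2 values, a separation in this direction seen for 8.36% of all genes, and the ΔAgo2 tumors were much closer to one another than the wild-type tumors were. The groups were also apart in TPM, at 125.72 to 267.07 in wild-type and 80.5 to 117.97 in ΔAgo2 tumors. The mean was 343.3 ± 161.8 CPM against 157.9 ± 12.25 CPM (SD, n = 4 each). The log2 difference was -1.12 ± 0.31 (SE, 95% interval -1.81 to -0.43), with an adjusted p of 0.0707 in the edgeR quasi-likelihood test. The high wild-type values came from the 2 shallowest libraries, tumors 2 and 4, and without both the difference was -0.38 ± 0.16 (adjusted p = 0.353, edgeR). Nfkb2 has a high GC content (59.4%), and with a GC correction the difference was -0.44 ± 0.16 (adjusted p = 0.144, edgeR). The part of depth and of GC content in the larger value was not tested further.

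The call on Nfkb2 depended on the processing. Of 24 alternatives, 5 placed it past the threshold. These were the DESeq2 Wald test (-1.15, adjusted p = 0.0122, with 14.9% of all genes called), limma voom with quality weights (-0.69, adjusted p = 0.0323, 27.9%), edgeR with no count filter (-1.04, adjusted p = 0.0477, 3.24%), edgeR without wild-type tumor 1 (-1.28, adjusted p = 0.0496, 4.05%) and edgeR without wild-type tumor 3 (-1.31, adjusted p = 0.0378, 5.68%). Over all 25 fits the log2 difference ran from -1.31 to -0.38 and was negative in each. These fits reuse the same tumors, and with the groups apart, leaving out libraries could hardly turn the sign. Exons of Nfkb2 (chr19:46304320-46312385, plus strand, GRCm38) overlap those of Psd over 299 bp and those of AC114539.1 over 531 bp, both on the opposite strand. The strand setting of the counting is not given in the sources used here, so shared reads cannot be told apart. Psd differed by -0.04 and AC114539.1 by -0.68 on the log2 scale (adjusted p = 0.947 and 0.124, edgeR).

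**Figure D2:**
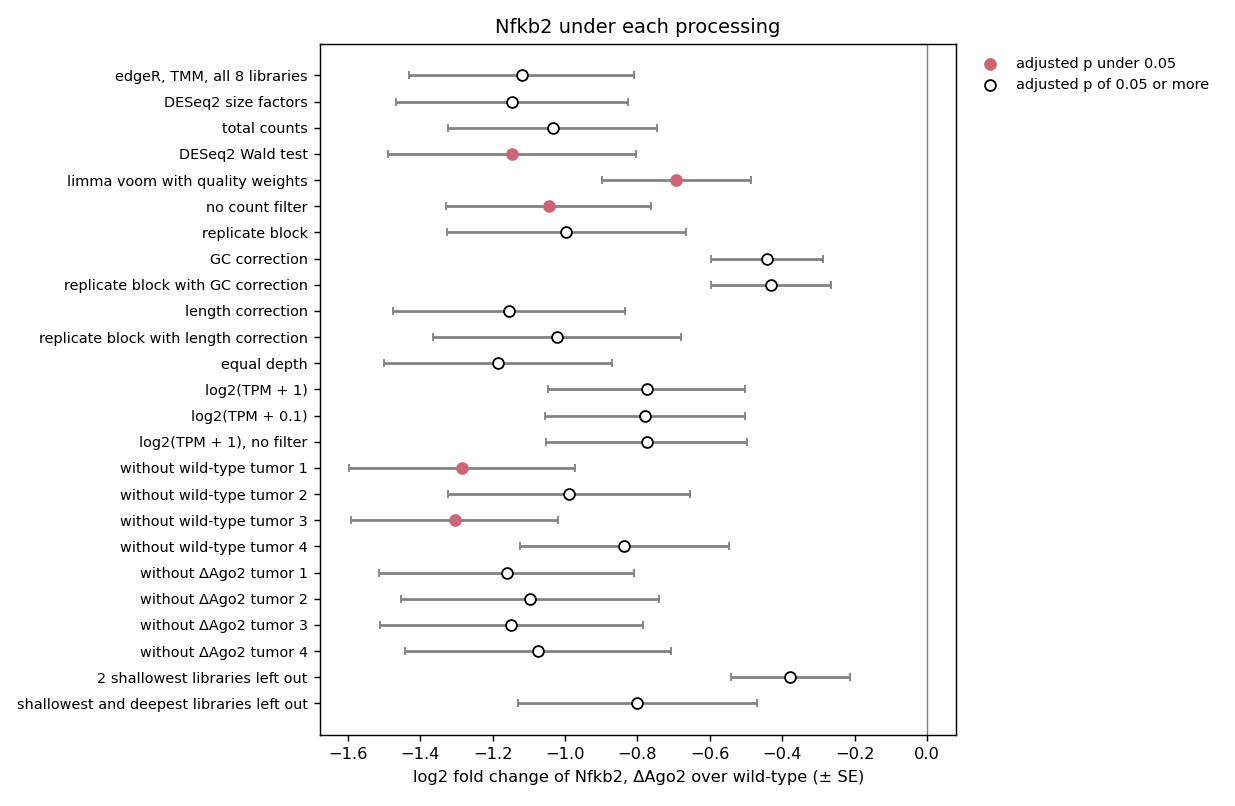
Log2 difference of Nfkb2 (horizontal axis, ΔAgo2 over wild-type, ± SE) in the reported fit and under 24 alternatives, filled where the adjusted p was under 0.05. The difference stayed negative throughout and was smallest with the 2 shallowest libraries left out (-0.38), then with a GC correction with the replicate block (-0.43) and without it (-0.44).

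Rel (chr11:23736847-23770970, minus strand, GRCm38) encodes c-Rel, a subunit best known in lymphoid and myeloid cells. It was at 5.303, 3.576, 5.339 and 2.293 CPM in the 4 wild-type tumors, in the order of their numbers, and at 5.355, 11.54, 5.731 and 8.283 CPM in the 4 ΔAgo2 tumors. The groups did not overlap, but by a narrow margin between wild-type tumor 3 (5.339 CPM) and ΔAgo2 tumor 1 (5.355 CPM), and 8.05% of all genes were separated in this direction. In wild-type tumor 4 the value rests on 16 counts. ΔAgo2 tumors differed from wild-type on the log2 scale by 0.88 ± 0.35 (SE, 95% interval 0.10 to 1.66; adjusted p = 0.15, edgeR). With the GC correction it was 0.34 ± 0.22, and without the 2 shallowest libraries 0.55 ± 0.35 (adjusted p = 0.419 and 0.497, edgeR). On the TPM scale, the deposited values per length, the groups did overlap, since ΔAgo2 tumor 1 was at 1.57 TPM and wild-type tumors 1 and 3 at 2.03 and 2.06 TPM.

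Rela encodes the main activating subunit of the canonical route. Its levels were 175.2, 259.1, 174.3 and 292.1 CPM in the 4 wild-type tumors, in the order of their numbers, and 188.5, 142.5, 154.4 and 145.3 CPM in the 4 ΔAgo2 tumors. ΔAgo2 tumor 1 lay above wild-type tumors 1 and 3, and the groups overlapped. On the log2 scale the genotypes differed by -0.51 ± 0.22 (SE, 95% interval -1.01 to -0.02; adjusted p = 0.175, edgeR). It changed sign with the GC correction (0.08 ± 0.12, adjusted p = 0.762, edgeR).

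Relb, the partner of Nfkb2, was at 44.39, 78.66, 41.12 and 103.9 CPM in wild-type tumors and at 56.44, 36.94, 42.8 and 40.79 CPM in ΔAgo2 tumors. Wild-type tumors 2 and 4 were high and the other two lay within the ΔAgo2 range, so the same pair of libraries stood out as for Nfkb2 and Rela. The log2 difference was -0.60 ± 0.30 (SE, 95% interval -1.26 to 0.08; adjusted p = 0.232, edgeR), and 0.07 ± 0.22 without these 2 libraries.

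Nfkb1 encodes the precursor of the usual partner of Rela. It was at 148.9, 141.9, 141.7 and 131.9 CPM in wild-type tumors and at 95.03, 141.2, 137.0 and 151.7 CPM in ΔAgo2 tumors. ΔAgo2 tumor 1 was low and the other 7 tumors lay close together. This gave a log2 difference of -0.10 ± 0.19 (SE, 95% interval -0.53 to 0.32; adjusted p = 0.749, edgeR). With the GC correction, in which this gene of low GC content (44.9%) moved the other way from Nfkb2 and Rela, it was -0.51 ± 0.17 (adjusted p = 0.121, edgeR).

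Subunits were compared with one another only per length, as shares of their summed TPM. The sum was 455.5 ± 116.6 TPM in wild-type and 334.1 ± 46.7 TPM in ΔAgo2 tumors (SD, n = 4 each). Rela and Nfkb2 together made up most of the sum in every tumor. The Nfkb2 share was 36.55, 44.53, 35.35 and 46.4% in the wild-type tumors and 30.28, 31.78, 33.4 and 30.95% in the ΔAgo2 tumors, with no overlap. The Rela share was 42.18 ± 3.6% against 46.92 ± 2.48%, so Rela and Nfkb2 were close in wild-type tumors, with Nfkb2 ahead in tumors 2 and 4 alone, and Rela was ahead in all 4 ΔAgo2 tumors. Nfkb1 and Relb followed at 7.28 ± 2.68% and 9.46 ± 0.98% in wild-type and 10.13 ± 2.54% and 10.38 ± 1.12% in ΔAgo2 tumors, within their spread of each other. Rel was lowest in every tumor, at 0.37 ± 0.23% and 0.97 ± 0.42%. Shares sum to a fixed total, so a lower share of 1 subunit raises the others. These are descriptions with no test.

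**Figure D3:**
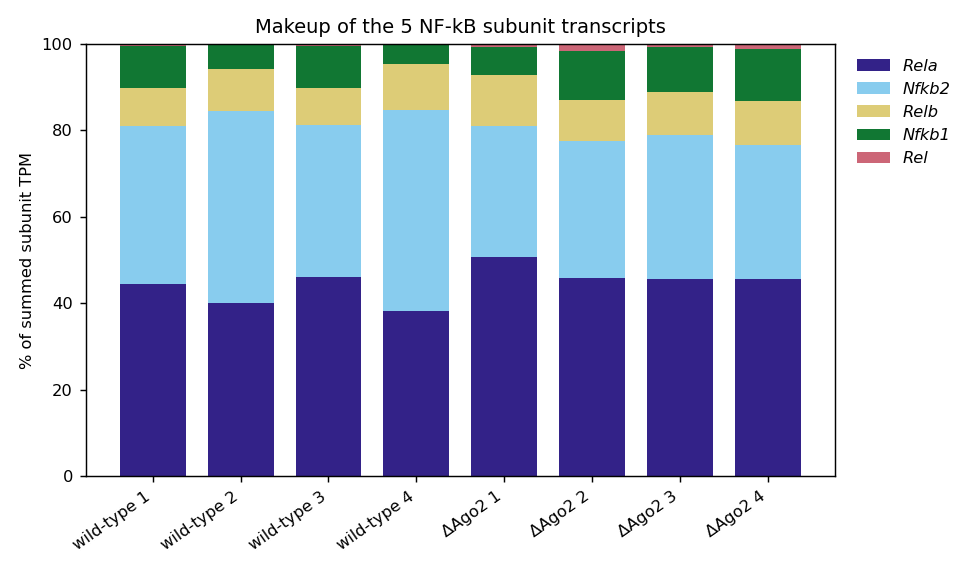
Share of each subunit in the summed TPM of the 5 subunits (vertical axis, percent) in each of the 8 tumors. The Nfkb2 share is 35.35 to 46.4% in wild-type and 30.28 to 33.4% in ΔAgo2 tumors, and the Rel share is barely visible in wild-type tumors.

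Of the IkB family, Nfkbia encodes IkB-alpha, the fast feedback inhibitor that NF-kB induces within a short time of its release. It was at 87.01, 82.72, 104.7 and 140.5 CPM in wild-type tumors and at 127.7, 83.64, 93.07 and 100.9 CPM in ΔAgo2 tumors. The highest value was in wild-type tumor 4 and the next in ΔAgo2 tumor 1, and the ranges coincided for most of their length. The genotypes differed in log2 level by -0.03 ± 0.23 (SE, 95% interval -0.53 to 0.46; adjusted p = 0.942, edgeR). Its sign was not settled by these data, as 15 of the 24 alternatives gave a positive value, the largest of them 0.20.

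Nfkbie encodes IkB-epsilon, a slower feedback inhibitor. Its levels were 27.21, 29.13, 21.44 and 34.11 CPM in wild-type and 26.77, 23.49, 21.55 and 21.77 CPM in ΔAgo2 tumors. Wild-type tumor 3 was the lowest of all 8, and the groups overlapped. The log2 difference was -0.25 ± 0.21 (SE, 95% interval -0.71 to 0.20; adjusted p = 0.433, edgeR).

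Nfkbiz encodes an atypical nuclear IkB that helps NF-kB switch on a secondary set of genes. It was at 22.43, 35.14, 24.85 and 34.69 CPM in wild-type and at 20.97, 43.17, 38.0 and 44.54 CPM in ΔAgo2 tumors. ΔAgo2 tumor 1 was the lowest of all 8 and the other 3 ΔAgo2 tumors lay above every wild-type tumor. The fitted log2 difference was 0.33 ± 0.27 (SE, 95% interval -0.27 to 0.93; adjusted p = 0.445, edgeR). With voom quality weights, which weigh each library by its fit, it was 0.78 ± 0.18 and passed the threshold (adjusted p = 0.0128, limma). In that fit 27.9% of all genes passed.

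The ubiquitin feedback genes varied least. Tnfaip3 encodes a ubiquitin-editing enzyme that shuts down signals to IkB kinase. It was at 11.62, 14.02, 14.53 and 13.9 CPM in wild-type and at 9.684, 12.76, 13.34 and 14.69 CPM in ΔAgo2 tumors, with ΔAgo2 tumor 1 lowest and ΔAgo2 tumor 4 highest. Its log2 difference was -0.10 ± 0.21 (SE, 95% interval -0.57 to 0.37; adjusted p = 0.791, edgeR). Birc3 encodes a ubiquitin ligase that holds back the non-canonical route and supports the canonical one. It was at 17.78, 14.06, 15.56 and 14.33 CPM in wild-type and at 13.44, 19.16, 17.88 and 18.46 CPM in ΔAgo2 tumors. ΔAgo2 tumor 1 was again the lowest and the other 3 ΔAgo2 tumors the highest. The log2 difference was 0.16 ± 0.21 (SE, 95% interval -0.29 to 0.61; adjusted p = 0.64, edgeR). Differences up to the bounds of these intervals, in either direction, are not excluded, and a p over the threshold does not show equal levels.

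**Figure D4:**
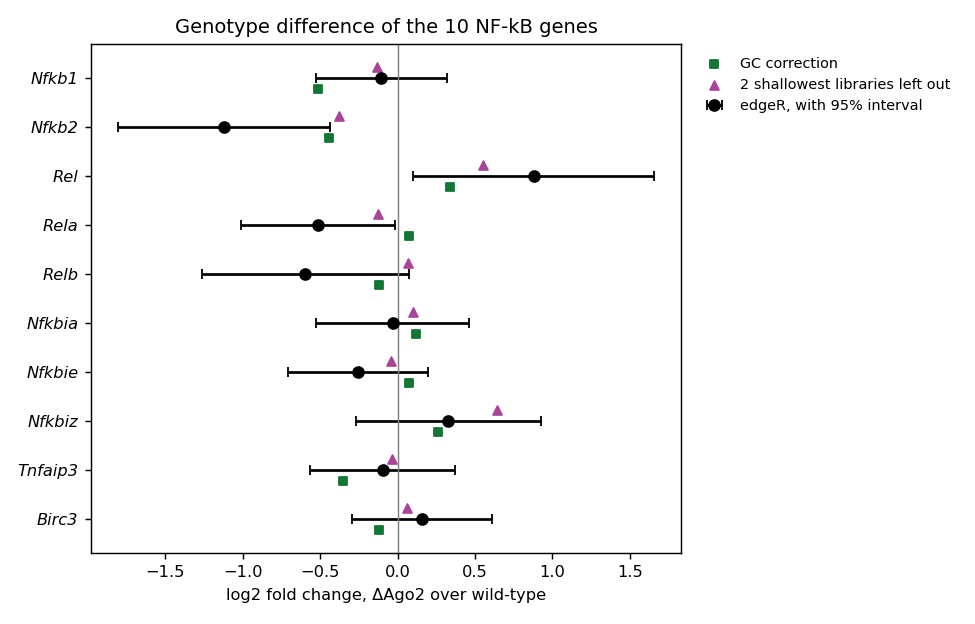
Log2 difference of each of the 10 genes (horizontal axis, ΔAgo2 over wild-type) with its 95% interval from edgeR in black, and the values with a GC correction (squares) and without the 2 shallowest libraries (triangles). The intervals of Nfkb2, Rel and Rela lie to one side of 0, and under both alternatives Nfkb2 and Rel moved toward 0, to -0.44 and -0.38 and to 0.34 and 0.55.

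Over all 10 genes per length, the order of levels in wild-type tumors was Nfkb2 (189.7 ± 70.71 TPM), Rela (189.5 ± 36.4), Nfkbia (165.9 ± 18.99), Relb (43.66 ± 14.11), Nfkb1 (31.15 ± 6.118), Nfkbie (23.9 ± 3.078), Nfkbiz (15.22 ± 3.212), Birc3 (8.21 ± 1.843), Tnfaip3 (4.942 ± 0.8779) and Rel (1.517 ± 0.68 TPM, SD, n = 4). The first 3 did not differ beyond their spread, nor did Relb from Nfkb1 or Nfkb1 from Nfkbie. In ΔAgo2 tumors Nfkbia (189.9 ± 16.85 TPM) stood first, then Rela (155.9 ± 15.03), then Nfkb2 (105.9 ± 17.35). Nfkb1 (34.69 ± 12.06) and Relb (34.28 ± 1.666) were level there, followed by Nfkbiz (23.68 ± 10.23) and Nfkbie (23.54 ± 3.762), also level. Birc3 (10.92 ± 3.538), Tnfaip3 (5.535 ± 1.787) and Rel (3.355 ± 1.784) came last. Tnfaip3 was above Rel in every ΔAgo2 tumor (2.94, 6.47, 5.82 and 6.91 against 1.57, 5.66, 2.42 and 3.77 TPM).

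The extremes of several members fell in the same libraries. Wild-type tumor 4 held the highest CPM of 5 members (Nfkb2, Rela, Relb, Nfkbia, Nfkbie) and ΔAgo2 tumor 1 the lowest of 4 (Nfkb1, Nfkbiz, Tnfaip3, Birc3). The span from lowest to highest tumor was widest for Rel (5.03-fold) and Nfkb2 (3.6-fold) and narrowest for Birc3 (1.43-fold). The 5 genes whose log2 CPM profile over the 8 libraries lay nearest to the mean profile of the members, out of 9238 compared, were Aurkb, Kcnk5, Polr3e, Mafk and Dele1, at root mean square distances of 0.0375 to 0.0637. These 5 genes had log2 differences of -0.17 to -0.04 between genotypes, which follows from choosing them by this profile.

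The rest of the pathway was described through 6 lists with 128 genes, of which 125 were tested. Among these, 9 (7.2%) passed the threshold, 7 (5.6%) higher and 2 (1.6%) lower in ΔAgo2 tumors, beside 3.49% of all genes, 1.36% higher and 2.12% lower. The median over the 125 log2 differences was 0.13 beside 0.04 for all genes. With the GC correction 6 (4.8%) passed, beside 3.78% of all genes. The lists were chosen with earlier results known, and the paper names Ccl2, Cd40 and Vcam1 for these tumors, so their direction is not independent evidence. The paper also reports inflammatory response and TNFα signaling gene sets as raised in ΔAgo2 tumors, by an enrichment test that was not run here.

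Upstream of the members, no gene passed among 15 IkB kinase and activating kinase genes or 28 adaptors and ubiquitin ligases. None of 20 other feedback genes passed either, beside 3.49% of all genes tested. The kinase list had positive differences for 13 of 15 genes, with a median of 0.48. Over all 16061 genes tested, 8427 were positive and the median was 0.04. Chuk, the IkB kinase subunit needed for Nfkb2 processing, was at 32.59, 21.55, 29.96 and 16.2 CPM in wild-type and 34.08, 61.16, 37.46 and 51.6 CPM in ΔAgo2 tumors, without overlap (log2 difference 0.87 ± 0.28, adjusted p = 0.0955, edgeR). With the GC correction it was 0.23 ± 0.14, and without the 2 shallowest libraries 0.57 ± 0.26 (adjusted p = 0.381 and 0.377, edgeR). The other kinase subunits Ikbkb and Ikbkg overlapped, at 0.03 and 0.26 (adjusted p = 0.931 and 0.447, edgeR). Map3k14, the kinase that starts the non-canonical route, had a log2 difference of -0.53 ± 0.26 (adjusted p = 0.221, edgeR). With the GC correction Ikbkb gave 0.07, Ikbkg -0.15 and Map3k14 0.06.

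Among other feedback genes, Bcl3, an atypical IkB that works with Nfkb2 dimers, was likewise lower in every ΔAgo2 tumor. It was at 50.48, 87.58, 52.76 and 111.8 CPM in wild-type and 47.39, 29.91, 41.55 and 39.68 CPM in ΔAgo2 tumors, again with wild-type tumors 2 and 4 highest and no overlap. Its log2 difference was -0.93 ± 0.28 (adjusted p = 0.0869, edgeR), but -0.13 ± 0.13 with the GC correction and -0.36 ± 0.22 without the 2 shallowest libraries (adjusted p = 0.588 and 0.474, edgeR). Birc2, the close relative of Birc3, went the other way, from 9.726 to 18.63 CPM in wild-type and 23.22 to 31.23 CPM in ΔAgo2 tumors (0.87 ± 0.25, adjusted p = 0.0724, edgeR), and its difference was 0.38 ± 0.16 with the GC correction (adjusted p = 0.205, edgeR). Nfkbid, a further nuclear IkB, did not overlap either, at 3.748 to 5.877 against 2.293 to 3.701 CPM (-0.51 ± 0.29, adjusted p = 0.277, edgeR), and with the GC correction its difference was -0.09 ± 0.24. Nfkbib, a cytoplasmic IkB, overlapped, with a log2 difference of -0.23 ± 0.29 (adjusted p = 0.628, edgeR).

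Of 13 receptor genes tested, Cd40, which feeds the non-canonical route, rose. It was at 6.934, 6.198, 5.171 and 10.46 CPM in wild-type and 29.85, 15.65, 16.27 and 15.32 CPM in ΔAgo2 tumors, so every ΔAgo2 tumor was higher. ΔAgo2 tumors differed in log2 level from wild-type tumors by 1.44 ± 0.31 (adjusted p = 0.0355, edgeR).

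Of 36 inflammatory target genes tested, 5 rose and 2 fell, and 20 of 36 had a negative difference (median -0.10). Ccl2, a chemokine that draws monocytes, was at 129.6, 57.88, 156.0 and 111.5 CPM in wild-type and 378.9, 317.5, 313.2 and 394.2 CPM in ΔAgo2 tumors (1.63 ± 0.28, adjusted p = 0.015, edgeR). Vcam1, an adhesion molecule for leukocytes, was at 57.91 to 122.2 CPM in wild-type and 234.3 to 323.4 CPM in ΔAgo2 tumors (1.60 ± 0.28, adjusted p = 0.0147, edgeR). Mmp13, a collagenase, F3, which starts blood clotting, and the cytokine Il1a also rose, by 1.28, 1.11 and 2.04 on the log2 scale (adjusted p = 0.0256, 0.0474 and 0.0492, edgeR). Il1a was near the detection limit in wild-type tumors, with 0 counts in tumor 4.

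The genes that fell were Mmp3, a matrix protease, and Csf3, the growth factor of neutrophils. Mmp3 was at 292.0, 140.0, 318.9 and 205.5 CPM in wild-type and 70.62, 25.7, 36.89 and 38.54 CPM in ΔAgo2 tumors (-2.48 ± 0.36, adjusted p = 0.00643, edgeR). Csf3 was at 2.211, 1.716, 6.454 and 13.9 CPM in wild-type and 0.4308, 0.5966, 0.7462 and 0.7667 CPM in ΔAgo2 tumors (-3.21 ± 0.64, adjusted p = 0.0272, edgeR). Sele, an adhesion molecule of activated endothelium, did not overlap but missed the threshold (-1.30 ± 0.42, adjusted p = 0.0998, edgeR). The classical NF-kB cytokines Tnf and Il1b overlapped, with log2 differences of 0.20 ± 0.40 and 0.13 ± 0.34 (adjusted p = 0.769 and 0.83, edgeR). In the survival list, Ccnd1, a cell cycle regulator, was the gene of 13 that passed. It was at 371.1 to 429.7 CPM in wild-type and 630.8 to 729.9 CPM in ΔAgo2 tumors (0.74 ± 0.18, adjusted p = 0.0488, edgeR).

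**Figure D5:**
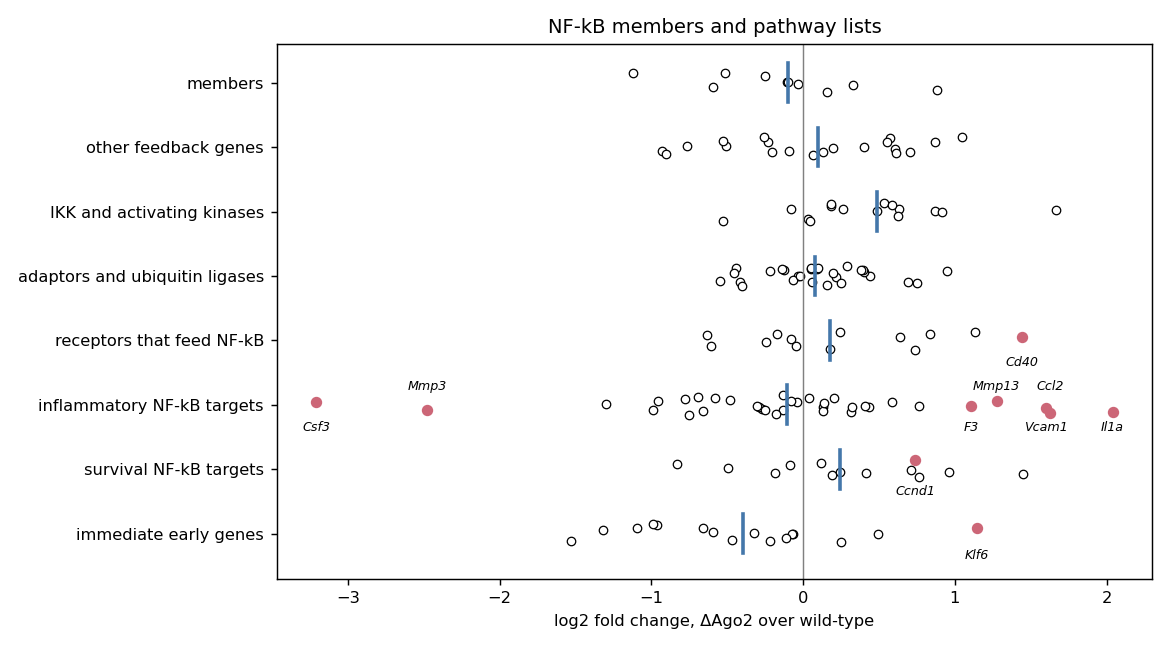
Log2 difference (horizontal axis, ΔAgo2 over wild-type) of each tested gene in the members, the 6 pathway lists and the immediate early genes, with filled and named points for genes past the threshold in edgeR and a bar at each list's median. No member is filled, and the filled points of the target lists lie on both sides of 0.

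Several of these calls were lost under the alternatives that moved Nfkb2, with each difference keeping its direction. With the GC correction, Ccl2 (1.25), Vcam1 (0.95), Mmp3 (-2.71), Csf3 (-2.74) and Ccnd1 (0.75) stayed past the threshold, the difference of Vcam1 being much smaller than before. The calls on Cd40 (1.31), Il1a (1.53), Mmp13 (0.71) and F3 (0.78) were lost (adjusted p = 0.0572, 0.0802, 0.0976 and 0.126, edgeR), although Cd40 was nearly as large. Without the 2 shallowest libraries, which leaves 2 wild-type tumors, Ccl2 (1.32, adjusted p = 0.0468, edgeR) and Mmp3 (-2.81, adjusted p = 0.0311, edgeR) passed. The other 7 did not, at 1.21 for Vcam1, 1.69 for Cd40, 1.17 for F3, 1.03 for Mmp13, 1.73 for Il1a, -2.74 for Csf3 and 0.68 for Ccnd1 (adjusted p from 0.0503 for Vcam1 to 0.17 for Ccnd1, edgeR), so Cd40 and F3 were larger than in all 8 tumors. Immediate early genes, which respond to tissue handling as well as to signaling, had negative differences for 13 of 16 genes tested (median -0.40), with summed levels of 636.2 to 1410 CPM in wild-type and 745.9 to 832.8 CPM in ΔAgo2 tumors. Klf6 was the 1 that passed, and it rose (1.15 ± 0.27, adjusted p = 0.0447, edgeR). With the GC correction, or without the 2 shallowest libraries, 0 immediate early genes passed. Their part in the NF-kB values was not tested.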

How the data were processed

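RNA from 4 wild-type and 4 ΔAgo2 tumors was sequenced with a stranded mRNA ligation kit, paired-end, on a NovaSeq, and groups came from the sample titles. The authors deposited raw gene counts, whole numbers with no normalization, and TPM values, which are counts divided by gene length and scaled to a common total. Per the methods, written for cultured cells and assumed for tumors, reads first met a ribosomal RNA database, were next aligned to mm10, and were counted by featureCounts. The submitters' processing notes name STAR and mm10. Strand setting, annotation release and treatment of reads with several positions are not given in the sources used here. Of 55487 identifiers, 99.29% matched GENCODE M21 on GRCm38.

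Counts were tested in R 4.3.3 with edgeR 4.0.16 (filterByExpr, TMM, quasi-likelihood test, no covariate, Benjamini-Hochberg adjustment over 16061 genes, threshold 0.05). The SE of a log2 difference was its size divided by the square root of F. Alternatives were DESeq2 1.42.0, voom of limma 3.58.1, other scalings, no filter, corrections for GC content and length fitted on genes averaging 50 counts or more, equal depth, limma on log2(TPM + 1) and log2(TPM + 0.1) in genes reaching 0.5 TPM in 4 libraries, or on log2(TPM + 1) unfiltered, a replicate block, and leaving out libraries. Scripts were tested on simulated data. Tables were handled in Python 3.11.15. The members and lists were chosen with earlier results of these data known. Named genes were the members, 10 fixed partners, Ago2, each gene of the pathway lists past the threshold, the 3 highest and 3 lowest inflammatory targets, and the 5 genes nearest to the members' mean profile among those with at least 10 CPM. Psd and AC114539.1 were added for their overlap, and Klf6 and the marker genes after their values were seen. P-values measure the spread between these tumors, each labelled a biological replicate.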

Additional observations from a re-analysis of the deposited data

Results flagged for a closer look

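The share of Rela in the summed TPM of the 5 subunits was 50.64% in ΔAgo2 tumor 1, against 45.59 to 45.76% in the other 3 ΔAgo2 tumors. It stood apart because its gap to the nearest tumor was 0.966 of the group's whole range, above Dixon's 95% limit for 4 values. Of 30 groups of values examined in this way 1 stood apart, and chance gives about 1.5.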

How the results depend on the processing

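Rel rests on 16 counts in the shallowest library, where Il1a had 0, and the pattern of Nfkb2, Rela and Relb rests largely on the 2 shallowest libraries. Leaving out these 2 libraries, or the shallowest and the deepest, was chosen after seeing the data, and the cause of the shifts below was not tested unless stated.

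None of the 10 members passed in the reported fit. With the DESeq2 Wald test 1 did (Nfkb2, lower), with no count filter 1 (Nfkb2, lower), and with voom quality weights 2 (Nfkbiz higher and Nfkb2 lower, 1 in each direction). Over all genes these 3 settings called 14.9%, 3.24% and 27.9%. Leaving out each library in turn gave 0 to 1, always lower. Without wild-type tumor 1 or 3 that gene was Nfkb2, with 4.05% and 5.68% of all genes called. Of the pathway genes 9 passed in the reported fit (7.2% beside 3.49% of all genes). The Wald test gave 24 (19.2% beside 14.9%), voom 36 (28.8% beside 27.9%) and the GC correction 6 (4.8% beside 3.78%). With log2(TPM + 1) or log2(TPM + 0.1) 3 passed (2.4% beside 0.993% and 0.694%), and with log2(TPM + 1) unfiltered 2 (1.56% beside 0.256%). Without the 2 shallowest libraries 2 passed (1.59% beside 0.589%), and without the shallowest and the deepest 0, beside 0.322%. Leaving out each library gave 1 to 20 of the 125 pathway genes. The lowest was without ΔAgo2 tumor 4, where 88 of all 16281 genes tested passed. The highest was without ΔAgo2 tumor 1, where 1793 of all 16301 genes tested passed. Calls over all genes thus moved in the same direction as the pathway calls. The median of all genes moved from 0.04 to 0.21 with log2(TPM + 1), 0.28 with log2(TPM + 0.1) and 0.16 with no count filter.

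The labels do not say whether the replicate numbers pair the tumors. Same-numbered tumors deviated with correlations of -0.236, 0.103, -0.045 and -0.29, and so few values cannot exclude pairing. With the replicate number as a block, 0 members passed, and calls over all genes went from 560 to 70. Of the pathway genes 1 passed with the block alone (0.8% beside 0.436% of all genes). With the block and a GC correction 4 passed (3.2% beside 1.9%), and with the block and a length correction 2 (1.6% beside 0.94%).

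Signs changed for differences that were not called. With a GC correction, alone and then with the block, Rela gave 0.077 and 0.078, Nfkbia 0.116 and 0.133, Nfkbie 0.071 and 0.072, Birc3 -0.117 and -0.12, Nfkbib 0.29 and 0.257, Ikbkg -0.15 and -0.153, Map3k14 0.059 and 0.027, and Il1b -0.083 and -0.022. With a length correction, alone and then with the block, Nfkbia gave 0.085 and 0.094 and Ikbkb -0.393 and -0.412. With log2(TPM + 1), log2(TPM + 0.1) and log2(TPM + 1) unfiltered, Nfkb1 gave 0.092, 0.092 and 0.092, Nfkbia 0.197, 0.198 and 0.197, and Tnfaip3 0.099, 0.107 and 0.099. With voom, Nfkbia gave 0.049, Tnfaip3 0.153, Tnf -0.577 and Il1b -0.045. Nfkbia gave 0.035 with total counts and 0.031 with no count filter. At equal depth Ikbkb gave -0.07 and Il1b -0.001. Without the 2 shallowest libraries Relb gave 0.068, Nfkbia 0.101, Nfkbib 0.111 and Il1b -0.336, and without the shallowest and the deepest Nfkbia gave 0.152, Nfkbib 0.041 and Il1b -0.004. Leaving out each library moved Nfkb1 from -0.169 to 0.014, Nfkbia from -0.168 to 0.157, Tnfaip3 from -0.167 to 0.002, Ikbkb from -0.057 to 0.155 and Il1b from -0.104 to 0.453. Taken over summed counts in place of TPM, the mean ΔAgo2 shares were 26.41% for Nfkb1, 1.56% for Rel, 31.56% for Rela and 8.84% for Relb. Of 1012 values recomputed under alternatives, 729 kept their direction and side of the threshold or, for counts and shares, stayed close to the reported value, 99 lost a call, 19 gained one, 53 changed sign and 112 counts or shares moved further.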
